A study of Mus musculus with 12 samples.

Results

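Mouse bone marrow cells carrying mutant NRAS alone were compared with cells carrying empty vectors only. These 6 libraries, 3 per group, were chosen by their labels from the 12 libraries of a study in which bone marrow was transduced with retroviral vectors for mutant SETBP1, mutant NRAS, both or neither. The marrow came from female C57BL/6J mice 6 to 10 weeks old. Each sample received a pair of vectors. The empty group carried EMPTY + EMPTY and the NRAS group carried EMPTY + NRAS (G12D). The remaining groups carried SETBP1 (D868N) + EMPTY and SETBP1 (D868N) + NRAS (G12D), and they enter below where the NRAS change is measured a second time. The labels call all samples, the empty-vector samples included, murine leukemia cells of the bone marrow. They do not say how long the cells grew, whether they were sorted, which promoter drove the transgenes, or whether replicates came from separate mice or transductions, so the p-values measure only the spread between these samples, which may be technical. RNA was extracted in bulk, sequenced from SMART-Seq libraries made for very low input, and deposited as counts per gene symbol.

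NRAS is a small GTPase that signals while bound to GTP and is switched off when the GTP is cleaved. Changes at its codon for glycine 12 slow that cleavage, and they recur in human myeloid leukaemias. Active RAS recruits RAF, which acts through MEK on ERK, and ERK signalling is known to raise immediate-early transcription factors, growth factor ligands and a set of its own inhibitors, among them the dual-specificity phosphatases and the Sprouty and Spred proteins. RAS also activates PI3K.

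The mouse Nras gene lies on chromosome 3 at 103058285 to 103067914, plus strand, of mm10 (GRCm38). The species of the NRAS insert is not given, and its own sequence was not analysed here.

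The targeted gene was measured first. Nras had 741, 732 and 626 counts in the empty-vector libraries and 10796, 10517 and 13502 in the NRAS libraries. The groups did not overlap, and the level was 17.6-fold higher with NRAS (log2 difference 4.14 ± 0.09, adjusted p = 1.95e-12). Counts per gene cannot separate vector-derived from endogenous transcripts. Setbp1 had no count in any of these 6 libraries, where 3 counts would correspond to 0.332 to 0.406 CPM, counts scaled to a common library total, and 5 to 17 counts in each library labelled SETBP1 or SETBP1+NRAS. Every library therefore matched its label.

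The libraries held 7085894 to 8591360 counts and 12678 to 12800 detected genes each. Replicates correlated at r = 0.9884 to 0.9909 across genes within a group and at 0.9318 to 0.9404 between the 2 groups (Pearson, log2 CPM, genes not being independent replicates). One library outside the pair, SETBP1 replicate 3, stood apart with 11835 detected genes, and it contributes to the spread estimated over all 12 libraries. General leukocyte and myeloid genes were abundant: Ptprc, which encodes CD45, had 1728 to 2593 counts per library, Itgam 3095 to 5391 and Spi1 2933 to 4130. Haemoglobin genes Hba-a1 and Hbb-bs and the T-cell gene Cd3e were listed at 0 in all 6, and the stromal gene Col1a1 had 0 to 3 counts. Oaz1, Amd1, Atp6v0c and Ndufs5, which most cells use, were also listed at 0 there, so a 0 in every library does not show that a transcript was absent. The haemoglobin genes have near-identical copies, between which reads can be shared. In bulk RNA, fewer cells of a type and less RNA per cell cannot be told apart.

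Of 19910 gene symbols, 10993 passed the filter on low counts, and 3576 of them (32.5%) differed between NRAS and empty vectors at an adjusted p below 0.05 (edgeR quasi-likelihood test, Benjamini-Hochberg). A gene past this threshold is said below to have risen or fallen, CPM are normalised to effective library size, differences are NRAS minus empty on the log2 scale ± SE, and a fold is 2 raised to that fitted difference. The SE is the size of the difference divided by the square root of its quasi-likelihood F statistic. Where a group had 1 to 5 counts in all, the fold is the ratio of summed counts per effective library size, with its counting interval. Where a fold stands alone the gene passed the threshold, and over the named genes that did so the SE of the log2 difference was 0.058 to 1.47, with a median of 0.185. With NRAS 1868 genes rose (17.0% of those tested) and 1708 fell (15.5%). Counts of list members given below are to be set beside these shares. At least 2-fold changes numbered 497 up (4.52%) and 591 down (5.38%), while at least 4-fold changes numbered 228 up and 155 down. Scaling by library size alone, which moves the median of all genes from -0.0075 to -0.10, gave 1379 higher and 2265 lower genes, so the share of higher calls was 37.8% in place of 52.2%. The 3 NRAS and 3 empty libraries did not overlap at 3550 of the 3576 genes, against 56.3% of all genes tested. Without SETBP1 replicate 3 the count of changed genes was 5224, and it was 5261 when only these 6 libraries entered the fit.

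**Figure D1:**
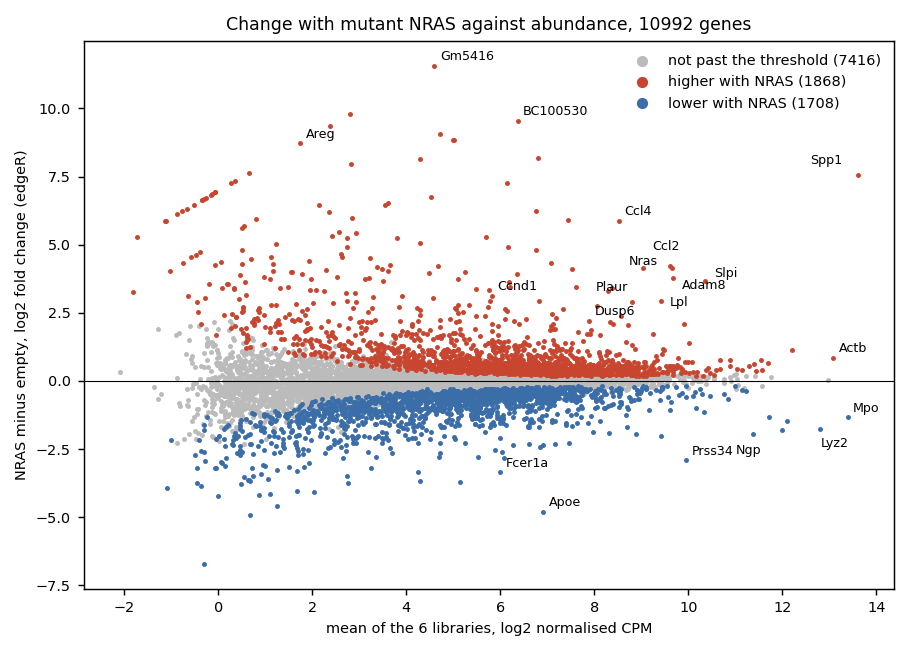
Log2 fold change, NRAS minus empty, against the mean log2 normalised CPM of the 6 libraries for 10992 genes with a count in them (1 point per gene, red higher, blue lower, grey not past the threshold). The rises reach further from 0 than the falls, and Spp1, at a log2 change of 7.57, lies at the abundant end.

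The most abundant transcript of the NRAS cells was Spp1, which encodes the secreted phosphoprotein osteopontin. Its level was 113, 203 and 76.4 CPM in the empty-vector libraries and 22875, 24703 and 26698 CPM in the NRAS libraries. The empty-vector libraries ranged widely, yet all lay far below the NRAS libraries, and the level was 189.6-fold higher (log2 difference 7.57 ± 0.44, adjusted p = 2.82e-08). The gene moved from rank 1721 to rank 1 by mean CPM. In the empty-vector cells the highest ranks belonged to Mpo, the myeloperoxidase of primary granules, at 15357, 14546 and 16137 CPM in the empty-vector libraries and 6271, 6257 and 5837 CPM in the NRAS libraries. Mpo was 2.51-fold lower with NRAS and ranked 5. Lyz2, the myeloid lysozyme, went from rank 2 to rank 11, and Chil3, a chitinase-like secreted protein, from rank 5 to rank 37. The structural gene Actb rose from rank 6 to rank 2 (1.8-fold higher), and the ferritin heavy chain Fth1 from rank 11 to rank 4 (2.2-fold higher).

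Of the 12 largest rises 11 came from genes with at most 18 counts in all in the 3 empty libraries, Spp1 being the other. Hao1, a peroxisomal hydroxyacid oxidase, Ptprn, a receptor-type phosphatase of secretory vesicles, and Areg, the EGF-receptor ligand amphiregulin, had no count in any empty library. Hao1 had 91, 80 and 151 counts in the NRAS libraries and was at least 34.6-fold higher, taking 3 counts as the highest level that a count of 0 allows in a library. Ptprn had 76, 76 and 87 counts and Areg 53, 40 and 61 counts, or at least 25.8-fold higher and at least 16.6-fold higher. Tm4sf1, a tetraspanin-like membrane protein, had 0, 0 and 2 counts against 423, 376 and 394, and was 635-fold higher (95% counting interval 175 to 5249.7). Rgs16, an inhibitor of heterotrimeric G-protein signalling, had 0, 0 and 3 counts against 363, 456 and 662, and was 526-fold higher (95% counting interval 179 to 2551). Ctnnd2, a catenin of the delta class, had 0, 0 and 1 counts against 82, 109 and 132, and was 344-fold higher (95% counting interval 61.3 to 13623). Without empty replicate 3 these 3 genes have no count in the empty group. All 12 of the largest rises also passed the threshold in the libraries with SETBP1.

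Apoe, the lipid-carrying apolipoprotein, showed the largest fall among genes with at least 50 mean counts in the higher group. It measured 229, 260.3 and 209.8 CPM in the empty-vector libraries and 11.8, 9.88 and 3.68 CPM in the NRAS libraries. It was 27.7-fold lower (log2 difference -4.79 ± 0.38, adjusted p = 5.33e-07), and NRAS replicate 3 was the lowest of the NRAS libraries. Chil1, a chitinase-like secreted protein, was 12.9-fold lower, Siglecg, an inhibitory sialic acid receptor, 10.1-fold lower, and Nrg1, the ErbB ligand neuregulin, 9.1-fold lower. Il2ra, the interleukin-2 receptor alpha chain, was 8.05-fold lower, with 5.2, 7.75 and 7.42 CPM against 0.529, 0.406 and 1.52 CPM (log2 difference -3.01, or -3.81 without NRAS replicate 3). The others of the 12 largest falls were Slc36a2, Klk1b1, Dennd2a and the mast-cell and basophil genes Fcer1a, Tpsg1, Tph1 and Prss34. Klk1b1 and Tpsg1 belong to families of close copies between which reads can be shared, so their values are uncertain.

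Genes that are widely used as a readout of the MAPK pathway rose, with 1 exception. Of 9 tested members of the MAPK output list, 8 rose by at least 2-fold and 0 fell, with a median log2 difference of 2.53 beside -0.0075 over all genes. Phlda1, a pleckstrin-homology protein of the immediate response, measured 4.2, 5.21 and 4.86 CPM in the empty-vector libraries and 61.8, 66.4 and 63.1 CPM in the NRAS libraries and was 13.4-fold higher (3.75 ± 0.36, adjusted p = 3.66e-06). Ccnd1, the D-type cyclin that binds CDK4 and CDK6, measured 11, 14 and 9.72 CPM in the empty-vector libraries and 95, 104 and 104 CPM in the NRAS libraries and was 8.76-fold higher (3.13 ± 0.18, adjusted p = 3.18e-08). The ETS factors Etv4 and Etv5 were 11-fold higher and 3.25-fold higher, and the ephrin receptor Epha2 5.77-fold higher. Spry2 was the exception, at 2.43, 1.02 and 2.02 CPM against 2.91, 1.76 and 2.92 CPM, groups that overlap.

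The pathway's inhibitors rose with them. Among 17 tested phosphatases and feedback inhibitors, which share Dusp4, Dusp6, Spry2 and Spry4 with the output list, 12 rose, all by at least 2-fold, and none fell (median 1.29). Dusp6, the cytoplasmic phosphatase of ERK, measured 79.9, 87.5 and 87.7 CPM in the empty-vector libraries and 380.3, 394 and 399 CPM in the NRAS libraries, 4.6-fold higher with NRAS (2.20 ± 0.08, adjusted p = 3.18e-10). Dusp5, a nuclear ERK phosphatase, was 4.48-fold higher, Spry4 7.33-fold higher, Spred1 2.79-fold higher and Errfi1, an inhibitor of EGF receptors, 4.6-fold higher. Dusp1, at 8.19, 6.98 and 7.02 CPM against 13.9, 8.93 and 9.63 CPM, and Spry1, at 4.09, 3.43 and 3.1 CPM against 4.62, 3.79 and 5.58 CPM, did not pass the threshold.

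Immediate-early transcription factors were higher in 16 of 25 tested and lower in 1 (median 0.78). Egr1, a zinc-finger factor induced by ERK, measured 6.97, 10.2 and 13.4 CPM in the empty-vector libraries and 143, 142 and 178 CPM in the NRAS libraries and was 15.3-fold higher (3.94 ± 0.26, adjusted p = 7.89e-08). Its relative Egr3 had 2 counts in the empty libraries, both in replicate 3, and 199 in the NRAS libraries, and was 106-fold higher (95% counting interval 28.9 to 881). Among AP-1 members, Fosl1 was 15.6-fold higher (from 2.68 to 42.3 CPM), Jun 3.19-fold higher, Fosl2 2.34-fold higher and Junb 2.17-fold higher. Fos itself, at 14.9, 16.6 and 13.8 CPM against 23.9, 22.5 and 20.9 CPM, did not pass the threshold although the groups did not overlap. Klf4, a zinc-finger factor of monocyte differentiation, was the member that fell, from 12.7 to 2.62 CPM.

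The genes of the signalling chain itself moved less and in both directions. Of 31 tested RAS, RAF, MEK and ERK core genes 7 rose, Nras included, and 11 fell (median -0.08). Hras measured 59.4, 54.6 and 50.7 CPM in the empty-vector libraries and 87.9, 79.1 and 76.3 CPM in the NRAS libraries (0.56 ± 0.15, adjusted p = 0.0121), its adjusted p being 0.0561 without empty replicate 3 and 0.051 without NRAS replicate 1. Map2k1, which encodes MEK1, was 1.38-fold higher, whereas Mapk3, which encodes ERK1, was 1.53-fold lower. The exchange factor gene Rasgrp1 was 2.99-fold lower and the adaptor Gab1 2.35-fold lower. In the PI3K, AKT and mTOR list 3 of 24 rose and 5 fell (median -0.02), shares of 12.5% and 20.8% that lie near those of all genes, with 1 higher without any 1 of 5 of the 6 libraries and 8 lower without SETBP1 replicate 3. The falls there were led by 3 genes that dampen or feed into the pathway, namely Pik3ip1, an inhibitor of PI3K (3.53-fold lower), the insulin receptor substrate Irs2 (2.88-fold lower) and the mTOR inhibitor Deptor (2.39-fold lower), while Akt1 was 1.25-fold higher.

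**Figure D2:**
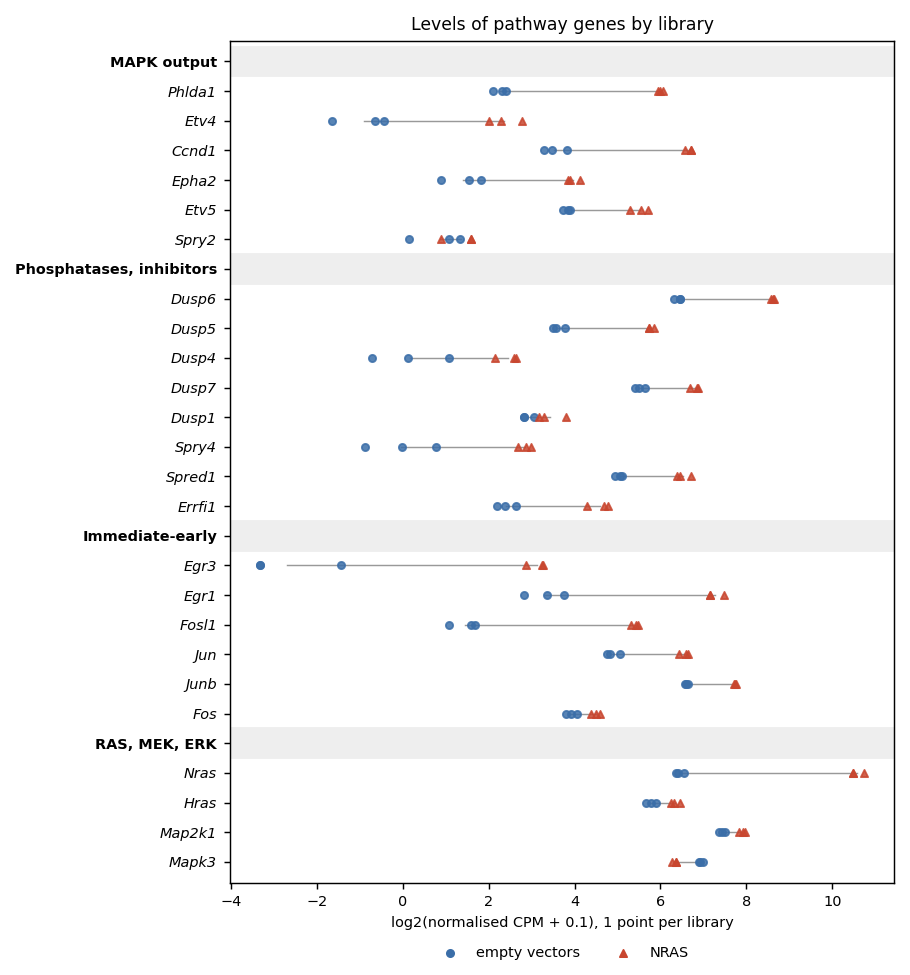
Levels of 24 pathway genes as log2 of normalised CPM plus 0.1, with 1 blue circle for each empty-vector library, 1 red triangle for each NRAS library and a grey line joining the group means. The red triangles lie to the right of the blue circles for Phlda1, Ccnd1, Dusp6, Egr1 and Fosl1, overlap them for Spry2 and lie to the left for Mapk3.

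Growth factor ligands rose in 10 of 16 tested and fell in 3 (median 0.93). Hbegf, a heparin-binding ligand of the EGF receptor, measured 2.66, 2.41 and 2.7 CPM in the empty-vector libraries and 41, 46.4 and 57.9 CPM in the NRAS libraries and was 18.6-fold higher (4.22 ± 0.20, adjusted p = 4.28e-09). Inhba, the activin A subunit, was 6.34-fold higher, the interleukin-6 family cytokine Osm 2.38-fold higher and Igf1 1.98-fold higher. Vegfa fell (1.5-fold lower). Of 22 tested colony-stimulating factors and cytokine receptors, a list of ligands and receptors that myeloid progenitors use, 3 rose, 8 fell and 11 did not pass the threshold (median -0.38), and 14 fell without SETBP1 replicate 3. Kit, the receptor of stem cell factor, measured 61, 58.3 and 76.8 CPM in the empty-vector libraries and 25.9, 22.5 and 29.2 CPM in the NRAS libraries (-1.34 ± 0.34, adjusted p = 0.00771). The G-CSF receptor Csf3r was 2.12-fold lower, the interferon gamma receptor Ifngr1 1.9-fold lower and the interleukin-4 receptor Il4ra 1.91-fold lower. The rises were Il7r (3.42-fold higher), the ligand Csf1 (1.89-fold higher) and the ligand Csf3, which had 0 counts against 21 (at least 2.29-fold higher). Among 24 JAK, STAT, SOCS and PIM genes 3 rose and 5 fell, shares also near those of all genes (median -0.22), or 1 and 3 without empty replicate 3, 5 and 12 without SETBP1 replicate 3, and 2 and 10 under library-size scaling. The kinase Pim1 was 2.56-fold lower and the STAT5-induced inhibitor Socs2 2.58-fold lower, while Pim3 measured 73, 69.6 and 67.1 CPM in the empty-vector libraries and 384, 514 and 496 CPM in the NRAS libraries and was 6.65-fold higher.

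Genes of ribosome assembly rose by small amounts. Of 41 tested ribosome biogenesis genes 33 rose and 0 fell, with a median of 0.49, and none changed by 2-fold. The nucleolar protein Ncl measured 1382, 1416 and 1380.4 CPM in the empty-vector libraries and 2413, 2261 and 2512 CPM in the NRAS libraries (0.78 ± 0.08, adjusted p = 3.71e-06). Npm1, a nucleolar chaperone, was 1.63-fold higher, the helicase Ddx21 1.79-fold higher and Rrp9, a component of the small-subunit processome, 1.85-fold higher. Of the 33, 25 rose again in the libraries with SETBP1. Cytosolic ribosomal protein genes moved by less, with 19 of 74 higher and 0 lower (median 0.23). This count depends on the processing, with 5 under library-size scaling, 5 without empty replicate 1 and 41 without SETBP1 replicate 3, and 1 of the 19 rose again with SETBP1. Ribosomal protein genes have many near-identical copies in the genome, so their counts are uncertain. Odc1, the first enzyme of polyamine synthesis, was 2.51-fold higher, and 5 of 8 tested polyamine genes rose while Paox fell (median 0.45). Myc, the growth-promoting transcription factor, was 1.18-fold higher (0.24 ± 0.07, adjusted p = 0.0238), and its adjusted p was 0.0654, 0.114 and 0.092 without empty replicate 1, empty replicate 2 or NRAS replicate 2.

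Cell-cycle genes rose more often among the G1 genes than among those of replication and mitosis, a difference that was not tested. Of 14 tested G1 cyclins and kinase inhibitors 7 rose and 1 fell (median 0.38), or 4 and 0 without empty replicate 1. Beside Ccnd1, the cyclin Ccne1 was 1.6-fold higher. The inhibitors diverged. Cdkn1a, which encodes p21, measured 235, 263 and 242 CPM in the empty-vector libraries and 444, 514 and 313 CPM in the NRAS libraries (0.78 ± 0.17, adjusted p = 0.00309). Cdkn2b, which encodes p15, went from 8 counts in all to 168 (log2 difference 4.41 ± 0.43, adjusted p = 3.83e-06, or 5.21 without empty replicate 2). The inhibitor Cdkn2c was the member of the list that fell (1.4-fold lower), and Cdkn1b, Cdkn1c and Cdkn2d did not pass the threshold. DNA replication genes rose in 8 of 34 (23.5%, beside 17.0% of all genes) and fell in 1 (median 0.16). The counts were 5 and 2 under library-size scaling and 13 and 2 without SETBP1 replicate 3. The rises were led by Orc6, Mcm10 and Rrm2 at 1.47-fold higher, 1.43-fold higher and 1.34-fold higher. Mitosis genes rose in 6 of 26 (23.1%, beside 17.0% of all genes) and fell in 0 (median 0.07), led by Cdk1 (1.32-fold higher). But 3 rose without empty replicate 3 or NRAS replicate 1, and under library-size scaling 1 rose, 3 fell and the median turned negative. The proliferation marker Mki67 was 213, 242 and 209.8 CPM against 225, 199 and 157 CPM. Among 22 p53 targets 7 rose and 5 fell (median 0.12), or 4 rose without empty replicate 1 or 3 and 3 fell without NRAS replicate 3. They included Mdm2, the ligase that degrades p53 (2.12-fold higher), and Trp53inp1 (3.26-fold lower). Within the Bcl2 family the survival gene Bcl2l1, which encodes BCL-XL, measured 48.5, 46.6 and 47.5 CPM in the empty-vector libraries and 143, 147 and 140.2 CPM in the NRAS libraries and was 3.02-fold higher. Bcl2 was 1.64-fold higher, while the death-promoting Bmf fell (-2.73 ± 0.61, adjusted p = 0.00367, or -3.48 without NRAS replicate 3). Other death-promoting members moved both ways. Bad fell (-0.47 ± 0.17, adjusted p = 0.0477), but Bcl2l11, which encodes BIM, rose (0.56 ± 0.18, adjusted p = 0.0306). Mcl1, Bax, Bak1, Bbc3 and Pmaip1 did not pass the threshold.

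Metabolic genes separated by pathway. Glucose uptake and glycolysis genes rose in 10 of 23 tested and fell in 3 (median 0.21), the falls numbering 5 under library-size scaling and 6 without SETBP1 replicate 3. The glucose transporter Slc2a1 measured 112, 115 and 102 CPM in the empty-vector libraries and 246, 254 and 261 CPM in the NRAS libraries (1.21 ± 0.17, adjusted p = 9.68e-05), the pyruvate kinase Pkm was 1.69-fold higher, Hk3 1.68-fold higher, Ldha 1.33-fold higher and the lactate exporter Slc16a3 1.58-fold higher. Ldhb, which encodes the other main lactate dehydrogenase subunit, fell (4.48-fold lower). Among 22 pentose phosphate and nucleotide synthesis genes 10 rose and 4 fell (median 0.24), or 5 and 5 under library-size scaling, and 6 rose without empty replicate 2. The rises were all in the synthesis of purines, pyrimidines or their ribose donor, such as Adsl (1.6-fold higher) and Ctps (1.42-fold higher), and the falls were the pentose phosphate enzymes Pgls, Taldo1, Tkt and Pgd, of which Pgls was 1.69-fold lower and Taldo1 1.5-fold lower. The adjusted p of Pgd was 0.051 to 0.0665 without empty replicate 1, empty replicate 2 or NRAS replicate 2. Nuclear-encoded respiratory chain subunits stayed near 0 change, with 0 of 70 higher and 2 lower (median -0.04). None was lower without any 1 of 4 of the 6 libraries, 9 were lower and 2 higher without SETBP1 replicate 3, and 12 were lower under library-size scaling.

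Cholesterol synthesis genes fell in 10 of 22 tested and rose in 0 (median -0.35), none by 2-fold. Fdps, the farnesyl diphosphate synthase, measured 274, 261 and 295 CPM in the empty-vector libraries and 155, 149 and 132 CPM in the NRAS libraries (-0.93 ± 0.11, adjusted p = 1.74e-05), Mvd was 1.71-fold lower and Acat2 1.66-fold lower. The lipid efflux list holds Apoe and the transporter Abca1, which measured 2.77, 3.3 and 4.86 CPM against 1.85, 0.541 and 0.254 CPM (-2.02 ± 0.55, adjusted p = 0.012). The adjusted p of Abca1 was 0.0542 without NRAS replicate 2 and 0.0531 without NRAS replicate 3, and its log2 difference -3.15 without NRAS replicate 1. The rises in this list included Lpl. This gene, which encodes lipoprotein lipase, measured 157, 193 and 123 CPM in the empty-vector libraries and 1268, 1179 and 1173 CPM in the NRAS libraries and was 7.66-fold higher (2.94 ± 0.16, adjusted p = 1.99e-08), the scavenger receptor Cd36 was 6.93-fold higher and the lipid-droplet protein Plin2 2.71-fold higher. Over the list as a whole 4 of 19 rose (21.1%, beside 17.0% of all genes) and 6 fell (median -0.03), or 3 fell without empty replicate 2, NRAS replicate 2 or NRAS replicate 3.

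Heat shock chaperones rose in 8 of 12 tested and fell in 0 (median 0.54), among them Hspd1 (1.6-fold higher), Hsp90ab1 (1.45-fold higher) and Hspa8 (1.46-fold higher). In the NRF2 list 5 of 19 rose and 5 fell, with a median of 0.04 whose sign turned with the scaling, and 3 fell without any 1 of 5 of these 6 libraries. The rises included the cystine transporter Slc7a11, at 11.2, 10.7 and 10.9 CPM in the empty-vector libraries and 131, 121 and 152 CPM in the NRAS libraries (3.62 ± 0.11, adjusted p = 4.62e-11), and the haem oxygenase Hmox1 (5.26-fold higher), and the falls included the glutathione transferase Gstm1 (2.1-fold lower) and Gclm, a subunit of the enzyme that starts glutathione synthesis (1.35-fold lower). Slc7a11 also belongs to the ATF4 list, in which 8 of 25 rose and 1 fell (median 0.11) and Atf4 itself was 434, 437 and 394 CPM against 442, 411 and 385 CPM. That list gave 4 rises without empty replicate 1, empty replicate 3 or NRAS replicate 1, 4 rises and 3 falls under library-size scaling, and 11 rises and 3 falls without SETBP1 replicate 3. Lysosome genes fell in 13 of 44 and rose in 4 (median -0.23), with 1 higher without empty replicate 3 and 22 lower under library-size scaling or 24 without SETBP1 replicate 3. The sphingolipid activator Psap was 2.51-fold lower and the cathepsin Ctsh 3.17-fold lower, while the cathepsin Ctsl was 4.13-fold higher. Psap measured 2329, 2553 and 921 CPM in the NRAS libraries, NRAS replicate 3 being the lowest, and all were below the empty-vector libraries at 4722, 5116 and 4704 CPM.

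**Figure D3:**
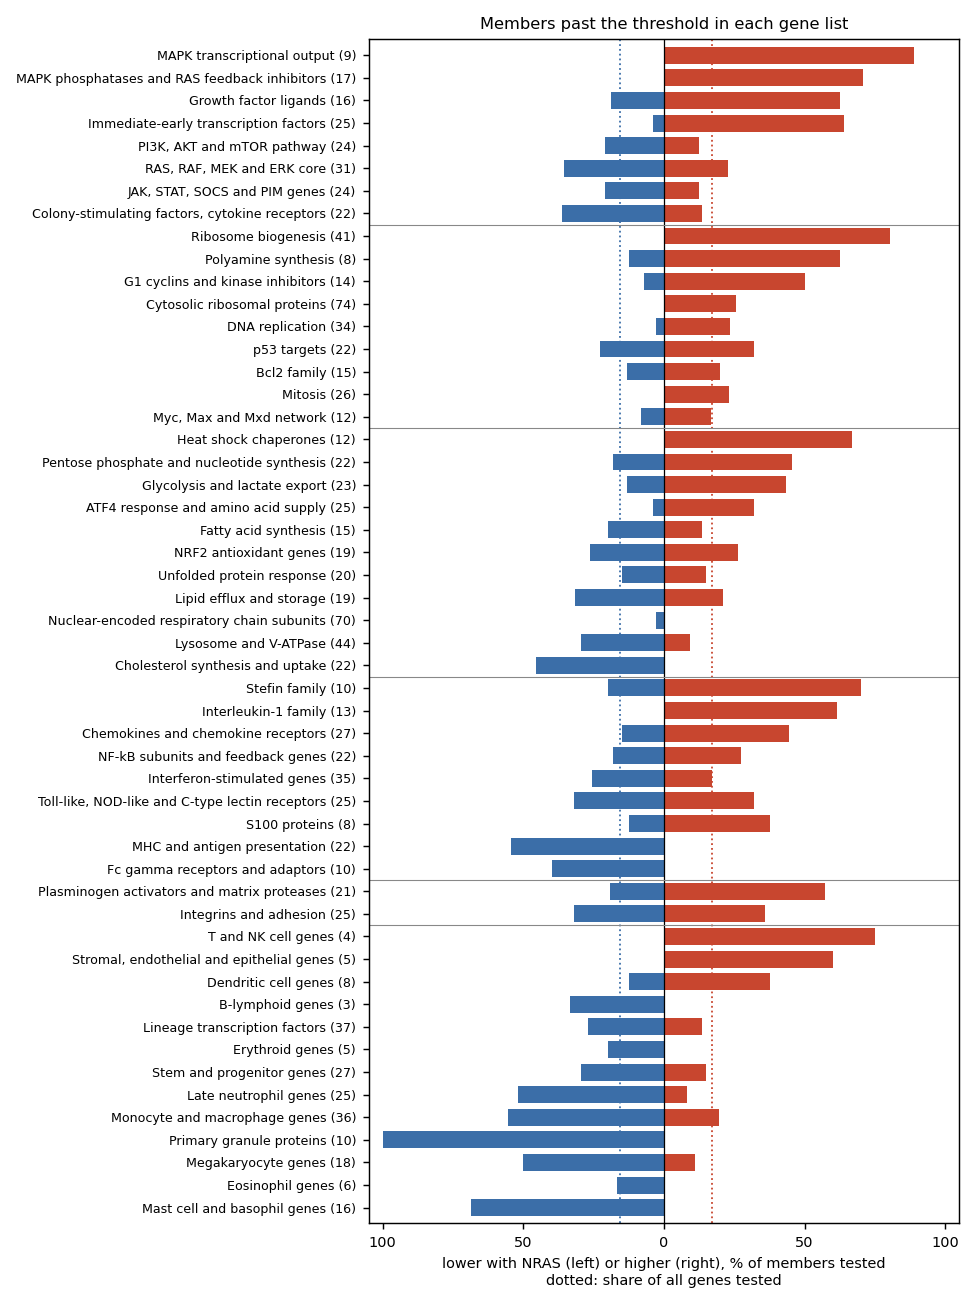
Share of the tested members of each gene list that passed the threshold, higher with NRAS to the right in red and lower to the left in blue, in percent, with the number tested in parentheses; lines divide signalling, growth, metabolism, inflammation, adhesion and lineage lists. Dotted lines mark the shares over all genes, 17.0% higher and 15.5% lower. Lists such as MAPK output (8 of 9 higher) and the primary granule list (10 of 10 lower) extend well past them. The lists were chosen with earlier results of these data known.

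A group of stefins, inhibitors of cysteine cathepsins, had the largest median change of the 52 lists. The lists were chosen with earlier results of these data known, so this rank is only a description. All 7 tested stefin A genes rose: Stfa1, Stfa2, Stfa2l1, Stfa3, Gm5416, Gm5483 and BC100530. Gm5416 had 0, 0 and 0 counts against 326, 409 and 372 (at least 119.9-fold higher). BC100530 had 2, 2 and 1 counts against 1285, 1280 and 1200, and was 802-fold higher (95% counting interval 343 to 2470.3). Gm5483 measured 0.332, 0.889 and 1.08 CPM in the empty-vector libraries and 219, 231 and 215 CPM in the NRAS libraries, Stfa1 was 513-fold higher (95% counting interval 175 to 2489) and Stfa3 319-fold higher (95% counting interval 109 to 1548). These genes lie together on chromosome 16, between 36156811 and 36455392 of mm10, a stretch of 298.6 kb that holds 9 related genes. They are near-identical copies, and the counting rule for reads that match several of them is not given, so the split between members is uncertain. The cystatin Cst3, encoded elsewhere, fell (1.95-fold lower), and Cstb was 250.5, 299 and 303 CPM against 239, 251 and 214 CPM.

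Chemokine genes rose strongly in part. Of 27 tested chemokines and receptors 12 rose, all by at least 2-fold, and 4 fell (median 0.46). Ccl2, which attracts monocytes, measured 74.3, 98.5 and 67.2 CPM in the empty-vector libraries and 1615, 1506 and 1323 CPM in the NRAS libraries and was 18.5-fold higher (4.21 ± 0.30, adjusted p = 2.11e-07). Its neighbours Ccl7 and Ccl12 were 17.6-fold higher and 60.3-fold higher. Those 3 and Ccl8, which had 0.221, 0.127 and 0.405 CPM against 0.396, 0.812 and 1.39 CPM, lie within 81.2 kb of chromosome 11, at 82035571 to 82116799 of mm10. A second cluster of 138.9 kb, at 83525778 to 83664683 of the same chromosome, holds Ccl3 (17.4-fold higher), Ccl4 (58.8-fold higher) and Ccl9 (2.25-fold higher), which rose, and Ccl5 (3.43, 6.22 and 5.94 CPM against 3.04, 4.87 and 3.3 CPM) and Ccl6 (1856, 2006 and 1722 CPM against 2283, 2025 and 2161 CPM), which did not pass the threshold. The neutrophil-attracting Cxcl2 was 16.3-fold higher. Receptors diverged, with Cxcr2 2.11-fold higher, the monocyte receptor Ccr2 1.32-fold lower, Cxcr4 1.69-fold lower and Cx3cr1 4.63-fold lower.

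Interleukin-1 family genes rose in 8 of 13 tested and fell in 0 (median 0.77). The receptor antagonist Il1rn measured 31.9, 32.4 and 31.3 CPM in the empty-vector libraries and 168, 136 and 162 CPM in the NRAS libraries (2.29 ± 0.21, adjusted p = 2.91e-06), the receptor Il1r1 was 3.62-fold higher and Il1b 3.27-fold higher. Of the 8, 6 rose again in the libraries with SETBP1. There Il1b did not rise and had a log2 difference of -0.73 ± 0.30 (adjusted p = 0.0668). Il33 went from 0 to 25 counts (at least 2.68-fold higher). Of 22 NF-kB subunits and feedback genes 6 rose (27.3%, beside 17.0% of all genes) and 4 fell (18.2%, near the 15.5% of all genes). Their median was 0.33, with Tnf 5.78-fold higher, Traf1 3.91-fold higher and the inhibitor Nfkbia 1.56-fold higher. Interferon-stimulated genes were divided, 6 of 35 rising, a share (17.1%) near that of all genes, and 9 falling (25.7%, beside 15.5%), and their median of 0.08 turned sign with the scaling; 3 rose without empty replicate 1, empty replicate 3 or NRAS replicate 2, and 13 without SETBP1 replicate 3. Usp18 was 2.22-fold higher and Ifi27l2a 2.38-fold lower. Antigen presentation genes fell in 12 of 22 and rose in 0 (median -0.41). The class II genes H2-Aa, H2-Eb1 and H2-Ab1 were 2.17-fold lower, 2.1-fold lower and 1.86-fold lower. Among innate receptors 8 of 25 rose and 8 fell (median -0.11). Cd14, the co-receptor for lipopolysaccharide, measured 38.2, 34.3 and 25.9 CPM in the empty-vector libraries and 365, 346 and 363 CPM in the NRAS libraries and was 10.9-fold higher (3.44 ± 0.26, adjusted p = 4.23e-07), and the C-type lectins Clec4d, Clec5a and Clec4e were 6.56-fold higher, 4.24-fold higher and 3.79-fold higher. Tlr2 was 3.1-fold lower and Clec4a3 3.2-fold lower, and Tlr4 was 60.1, 57.8 and 61 CPM against 59.7, 57.8 and 66 CPM. In the list of Fc gamma receptors and adaptors 4 of 10 fell and 0 rose (median -0.42). The list gave 7 lower under library-size scaling, and 7 lower and 1 higher without SETBP1 replicate 3. The falls were Fcgr4, Fcgrt, Hcst and the IgE receptor gene Fcer1a. The Fc gamma receptors Fcgr1, Fcgr2b and Fcgr3 and the adaptors Fcer1g and Tyrobp did not pass the threshold.

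Secreted proteases and plasminogen activators rose in 12 of 21 tested and fell in 4 (median 0.82), a list that also holds Spp1. Adam8, a membrane metalloprotease, measured 112, 114 and 109 CPM in the empty-vector libraries and 1433, 1560.4 and 1570.4 CPM in the NRAS libraries and was 13.7-fold higher (3.77 ± 0.13, adjusted p = 1.60e-10). Plaur, the urokinase receptor, measured 101, 104 and 108 CPM in the empty-vector libraries and 781, 795 and 776 CPM in the NRAS libraries and was 7.52-fold higher, and Plau, urokinase itself, was 9.37-fold higher. Serpinb2, an inhibitor of plasminogen activation, also rose, from 4.57 to 139 CPM. Mmp12, the macrophage elastase, was 10.7-fold higher and the collagenase Mmp13 27.7-fold higher, while the neutrophil collagenase Mmp8 was 2.91-fold lower. These 3 lie within 296.0 kb of chromosome 9, 7272514 to 7568485 of mm10, so neighbours there moved in opposite directions. Integrins and adhesion molecules rose in 9 of 25 and fell in 8, among them Itgax (6.43-fold higher), Cd44 (2.05-fold higher), Itgb5 (2.54-fold lower) and Itga4 (1.44-fold lower).

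Promoter windows of 300 bases, 250 before and 50 after each RefSeq start (GRCm38.p6), were searched for the AP-1 motif TGAGTCA or its reverse complement TGACTCA. Of the tested genes 8836 had 1 or more windows, 11293 in all, and starts of the same gene can overlap. The motif was in 3.84% of all windows, in 8.44% of windows of genes that rose at least 2-fold, in 10.8% of those that rose at least 4-fold, and in 6.19% of those that fell at least 2-fold. Over all genes past the threshold the shares were close, at 4.50% of windows for genes that rose and 4.71% for genes that fell. In the MAPK output list 0 of 5 windows held the motif, and in the immediate-early list 1 of 29 did. The ETS motif CCGGAA, searched on both strands, was in 27.8% of all windows but in 56 of the 486 windows of genes that rose at least 2-fold and 70 of the 582 of genes that fell at least 2-fold. The serum response element core, the CArG box, was in 6 of 29 windows of the immediate-early list (20.7%) and 1.30% of all. These are descriptions of letters, not of binding. In the list of proteases and plasminogen activators 3 of 17 windows held the AP-1 motif, and their 250 bases before the start are shown because all 3 genes rose, with the motif in capitals. It begins 35 bases before the start in Mmp13, 44 bases before the start in Mmp12, for 1 of its 2 listed starts, and 69 bases before the start in Plaur.
Mmp13, chr9:7272264-7272513, plus strand: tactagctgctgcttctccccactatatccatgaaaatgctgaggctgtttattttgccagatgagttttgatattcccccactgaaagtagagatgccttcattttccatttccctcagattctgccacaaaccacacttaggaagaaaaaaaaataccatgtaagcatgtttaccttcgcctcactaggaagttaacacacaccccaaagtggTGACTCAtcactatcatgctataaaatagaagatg
Mmp12, chr9:7347124-7347373, plus strand: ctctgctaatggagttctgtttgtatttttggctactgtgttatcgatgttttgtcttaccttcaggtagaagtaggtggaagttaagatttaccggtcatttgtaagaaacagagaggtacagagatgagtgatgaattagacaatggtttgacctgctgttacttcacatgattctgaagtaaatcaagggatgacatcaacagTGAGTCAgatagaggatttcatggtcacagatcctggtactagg
Plaur, chr7:24462233-24462482, plus strand: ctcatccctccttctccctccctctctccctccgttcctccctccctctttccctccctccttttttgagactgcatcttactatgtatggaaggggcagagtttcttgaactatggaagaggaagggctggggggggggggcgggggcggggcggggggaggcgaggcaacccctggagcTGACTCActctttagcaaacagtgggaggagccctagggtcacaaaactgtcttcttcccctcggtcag

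The myeloid granule genes fell together. All 10 genes of the primary granule list fell (median -1.04). Beside granule proteins the list holds the transcription factors Gfi1 and Cebpa, and also Ms4a3, Nkg7 and Igfbp4. Beside Mpo, the neutrophil elastase Elane measured 6184, 6077 and 7046 CPM in the empty-vector libraries and 2622, 2355 and 2010.2 CPM in the NRAS libraries (-1.47 ± 0.10, adjusted p = 1.97e-07), and the groups did not overlap. Prtn3 was 2.21-fold lower, Prss57 4.93-fold lower and Ctsg 1.36-fold lower. The summed level of the 10 listed genes was 25881 to 28562 CPM in the empty-vector libraries and 10474 to 12029 CPM in the NRAS libraries. Late neutrophil genes fell in 13 of 25 tested and rose in 2 (median -0.68). The secondary granule genes Camp, Ltf and Ngp were 4.81-fold lower, 4.08-fold lower and 3.86-fold lower. S100a8 and S100a9, the calprotectin subunits, were 1951, 2194 and 2538 CPM against 2330.4, 2005 and 1761 CPM and 2472, 2426 and 2744 CPM against 2567, 1959 and 1870.5 CPM. The rises were the gelatinase Mmp9 (1.95-fold higher) and Cxcr2.

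Monocyte and macrophage genes fell more often than they rose. Of 36 tested 20 fell (55.6%, beside 15.5% of all genes) and 7 rose (19.4%, near the 17.0% of all genes), with a median of -0.80. Lyz2 measured 11548, 11855 and 9969 CPM in the empty-vector libraries and 3562, 3336 and 2850.3 CPM in the NRAS libraries (-1.78 ± 0.22, adjusted p = 3.43e-05). F13a1, the coagulation factor subunit of monocytes, was 3.85-fold lower, Vcan 4.81-fold lower, Adgre1, which encodes F4/80, 2.2-fold lower, and the complement gene C1qa 2.16-fold lower. The rises, beside Spp1 and Cd14, included the arginase Arg1, at 345, 455 and 308 CPM in the empty-vector libraries and 1643, 1568 and 1461 CPM in the NRAS libraries (2.08 ± 0.22, adjusted p = 9.76e-06), and the scavenger receptor Msr1 (1.96-fold higher). Csf1r and Ly6c2 did not pass the threshold, at 329, 337 and 328 CPM against 267, 259.6 and 256 CPM and 3200.4, 3397 and 3152 CPM against 2869, 3043 and 2683 CPM.

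Mast cell and basophil genes fell in 11 of 16 tested and rose in 0 (median -1.22), with 2 higher without SETBP1 replicate 3. In the libraries with SETBP1, 7 of the 16 fell, 3 rose and the median was -0.54. Fcer1a, the IgE receptor alpha chain, measured 108, 119 and 123 CPM in the empty-vector libraries and 7.8, 12.3 and 13.9 CPM in the NRAS libraries (-3.36 ± 0.21, adjusted p = 7.12e-08). The basophil proteases Prss34 and Mcpt8 were 7.47-fold lower and 3.19-fold lower, the receptor subunit Ms4a2 5.8-fold lower and the carboxypeptidase Cpa3 3.24-fold lower. The summed list was 4651 to 4735 CPM against 2185 to 2918 CPM. Megakaryocyte genes fell in 9 of 18 and rose in 2 (median -1.21), with 4 lower without NRAS replicate 2 and 14 without SETBP1 replicate 3. Vwf measured 9.85, 8.51 and 7.96 CPM in the empty-vector libraries and 2.51, 0.812 and 1.52 CPM in the NRAS libraries (-2.43 ± 0.38, adjusted p = 2.43e-04) and Itga2b was 1.62-fold lower, but Pf4 was 71.7, 74.3 and 84.3 CPM against 103, 65.6 and 53.6 CPM and Selp was 2.08-fold higher. Of 6 tested eosinophil genes 1 fell, Siglecf (2.81-fold lower), a share (16.7%) near the 15.5% of all genes. Without SETBP1 replicate 3, 4 fell. The part that a different mix of cells has in these falls was not tested.

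**Figure D4:**
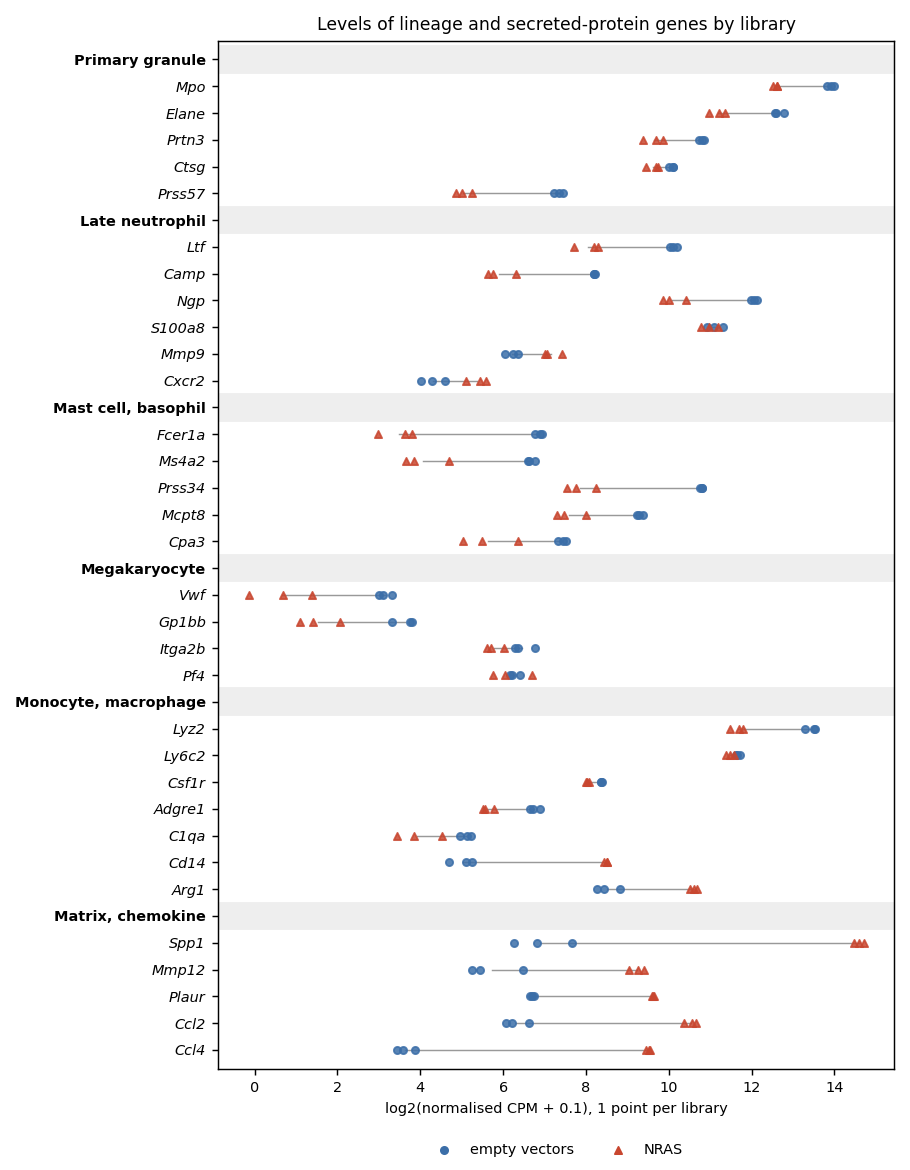
Levels of lineage and secreted-protein genes as log2 of normalised CPM plus 0.1, with 1 blue circle for each empty-vector library, 1 red triangle for each NRAS library and a grey line joining the group means. Granule, mast-cell and megakaryocyte genes mostly have the triangles on the left, whereas Cd14, Arg1, Spp1, Mmp12, Plaur, Ccl2 and Ccl4 have them on the right; Pf4 and S100a8 overlap.

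Stem and progenitor genes fell in 8 of 27 tested (29.6%, beside 15.5% of all genes) and rose in 4 (14.8%, near the 17.0% of all genes). Their median was -0.29, with 5 lower without empty replicate 2 and 13 without SETBP1 replicate 3. Beside Kit, the falls included Prom1 (2.65-fold lower) and Myb (1.62-fold lower), and the rises Cd34 (2.26-fold higher), Procr (4.38-fold higher) and Meis1 (1.99-fold higher). Hoxa9 was 18.3, 21 and 20.1 CPM against 14.9, 19.6 and 21.3 CPM. Lineage transcription factors rose in 5 of 37 (13.5%, also near the share of all genes) and fell in 10 (27.0%). Their median was -0.08, and 13 rose and 14 fell without SETBP1 replicate 3. Runx1 was 1.72-fold lower, Gfi1 1.91-fold lower, Irf8 1.62-fold lower and Cebpa 1.55-fold lower, while Ets2 measured 17.3, 20.1 and 23.9 CPM in the empty-vector libraries and 107, 114 and 142 CPM in the NRAS libraries (2.58 ± 0.14, adjusted p = 1.35e-08) and Id2, an inhibitor of helix-loop-helix factors, was 2.86-fold higher. The myeloid regulator Spi1, which encodes PU.1, was 457, 460.5 and 428 CPM against 409, 412 and 372 CPM. Markers of other tissues were low. The 4 tested T and NK genes of 21 summed to 19.5 to 21.3 CPM against 39.2 to 45.2 CPM, with Lck, Cd28 and Cd5 higher and Cd3e listed at 0. The 5 tested stromal, endothelial and epithelial genes of 17 summed to 60.2 to 61.1 CPM against 80.1 to 110.5 CPM. Of these 5, 3 rose (Pdgfrb, Kdr and Cdh1) and 0 fell. Most of the sum was Cdh1, at 45, 44.1 and 46.8 CPM against 62.6, 60.3 and 90.5 CPM. The part of such cells in the results was not tested.

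The change brought by NRAS was measured a second time in libraries that share none of these 6, as SETBP1+NRAS minus SETBP1. There 4661 of the 10993 genes passed the threshold (42.4%), with 2293 higher (20.9%) and 2368 lower (21.5%). Of the 3576 genes changed without SETBP1, 2717 (76%) changed in the same direction with it, 3 in the opposite direction, and 856 did not pass the threshold. The sign was the same for 3465 of them (96.9%). Of the 1088 genes with at least a 2-fold change, 949 (87.2%) changed again in the same direction. Among the lead genes the log2 differences without and with SETBP1 were 7.57 and 6.27 for Spp1, 2.20 and 2.35 for Dusp6, 3.94 and 2.18 for Egr1, 4.21 and 2.58 for Ccl2, -4.79 and -6.05 for Apoe and -1.33 and -1.75 for Mpo. Tph1, the serotonin-synthesis enzyme of mast cells, went the other way, falling by 3.16 on the log2 scale without SETBP1 (adjusted p = 5.93e-04; 3.99 without NRAS replicate 2) and measuring 2.32 with it (adjusted p = 0.175).

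A test of the difference between the changes passed for 5 genes (0.0455%), with 1420 at an unadjusted p below 0.05. They were the cystine transporter Slc7a11, the antiviral cytidine deaminase Apobec3, the membrane protein Tmem176b, the secreted protein Oaf and the antimicrobial peptide gene Camp. This count moved from 1 to 110 when single libraries were left out, the highest being without SETBP1 replicate 3, and it was 81 with DESeq2.

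**Figure D5:**
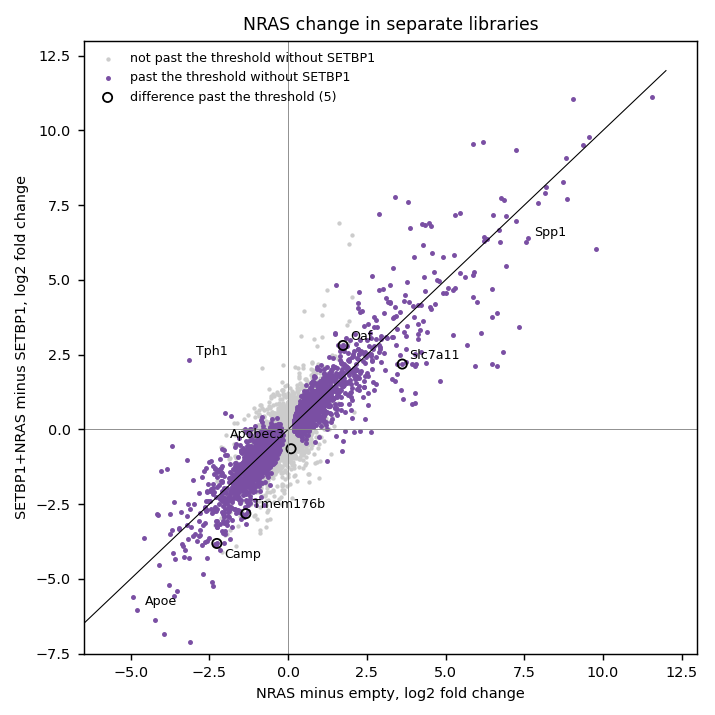
Log2 fold change of SETBP1+NRAS over SETBP1 against that of NRAS over empty vectors, 1 point per gene, purple where the latter passed the threshold, with a line of equal change and circles around the 5 genes whose difference passed. Most purple points have the same sign on both axes (96.9%), and Tph1 is among the exceptions.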

How the data were processed

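Per the labels, RNA came from transduced mouse bone marrow. The authors deposited whole-number counts per gene symbol for 12 libraries in 1 table. The submitters' processing notes name STAR, DESeq2 and mm10 with no version or role. The counting tool, annotation, strand rule and any filter are not given in the sources used here, so reads of antisense or overlapping genes cannot be told apart.

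The 6 libraries were fitted with the other 6 in edgeR 4.0.16 (R 4.3.3): quasi-likelihood test, 4 group means, TMM scaling, filterByExpr with a minimum count of 10 and total of 15, Benjamini-Hochberg adjustment over all genes, threshold 0.05. Genes kept held 99.93% of counts. Library totals of 7085894 to 8591360, less the genes filtered out and times their TMM factors, put 3 counts at 0.332 to 0.406 CPM. Intervals cover counting error only. No pair of replicates agreed within sampling noise. On data simulated from these libraries for this comparison (10993 genes, 200 changed), edgeR recovered 76% of 2-fold and 98% of 4-fold changes, and 4.40% of its calls were false. For DESeq2 12.1% of calls were false. The simulation changed genes in the NRAS group only, and far fewer than the 3576 called in the data, so these shares may not carry over. DESeq2 1.42.0, limma-voom (limma 3.58.1), other scalings, filters and sample sets were alternatives.

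Members and the 52 gene lists (1185 genes, of which 1055 were tested) were chosen with earlier results of these data known. Genes were named by a rule: Nras and Setbp1; the 12 largest rises and the 12 largest falls among changed genes, provided that the 2 groups were fully separate and the higher one averaged 50 counts or more; core members of lists, the 4 largest changes in each direction and the 3 most abundant members of each; the 10 most abundant genes per group; and genes whose change differed between backgrounds. Ptprc, Ccl5 and Ccl8 and the genes at or near 0 given beside the cell markers were added after their values were seen. Some genes that this rule names are not reported here. Reference coordinates are from GENCODE on GRCm38, promoters from RefSeq.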

Additional observations from a re-analysis of the deposited data

Results flagged for a closer look

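The change with NRAS differed between the cells without and with mutant SETBP1 for 5 genes (edgeR quasi-likelihood test of the difference, Benjamini-Hochberg). The values below are the change with SETBP1 minus the change without it, on the log2 scale ± SE, and the 2 changes share no library. Slc7a11 had a difference of -1.44 ± 0.15 (adjusted p = 0.00169): it rose by 3.62 without SETBP1 and by 2.18 with it. Camp had a difference of -1.55 ± 0.24 (adjusted p = 0.0424), with changes of -2.27 and -3.82, and Tmem176b one of -1.48 ± 0.19 (adjusted p = 0.0114), with changes of -1.34 and -2.82, so both fell further with SETBP1. Oaf had a difference of 1.06 ± 0.16 (adjusted p = 0.0374) and rose by 1.74 and 2.81. Apobec3 had a difference of -0.74 ± 0.10 (adjusted p = 0.0178); it measured 169, 159 and 168 CPM against 172, 167 and 189 CPM without SETBP1, where it did not pass the threshold, and changed by -0.65 with it. The call for Slc7a11 held without any single library, whereas the other 4 were lost without some of them. For Tmem176b the adjusted p was 0.0731 without empty replicate 1 and 0.0588 without empty replicate 3. For Apobec3 it was 0.0588 to 0.129 without any 1 of the empty libraries, SETBP1+NRAS replicate 1 or SETBP1+NRAS replicate 2. For Camp it was 0.0791 to 0.194 without any 1 of the empty libraries, the SETBP1+NRAS libraries or NRAS replicate 2. For Oaf it was 0.0548 to 0.184 without any 1 of the libraries other than SETBP1 replicates 1 and 3. Without SETBP1 replicate 3 the count of such genes was 110. That library correlated at 0.9457 and 0.9525 with the other SETBP1 libraries, which correlated at 0.9842 with each other (Pearson, log2 CPM, across genes). No gap test for single outlying values was made in groups of 3.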

How the results depend on the processing

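The comparison of NRAS with empty vectors was repeated under 24 alternatives, 12 of which left out 1 library each. The 3576 changed genes became 2681 to 5224 when single libraries were left out, the lowest without empty replicate 1 and the highest without SETBP1 replicate 3, with 1369 to 2714 higher and 1307 to 2510 lower. Genes changed at least 2-fold numbered 962 to 1228, genes changed in the SETBP1 background 3681 to 5166, and genes changed again there 2172 to 3792. At an adjusted p below 0.01 there were 2289 changed genes, 1215 higher and 1074 lower, 3043 in the SETBP1 background and 1750 changed again. With only the groups compared in the fit, 2643 genes were lower, and 3083 changed in the SETBP1 background. With a mean count of at least 50, 684 genes changed at least 2-fold.

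Genes whose change differed between backgrounds numbered 5, but 81 with DESeq2, 3 with limma-voom, 14 with no filter on low counts, 1 at an adjusted p below 0.01, and 1 to 110 without single libraries. Deviations from the group means correlated at -0.0392, 0.0632 and 0.0881 between same-numbered empty and NRAS libraries. Between differently numbered ones they correlated at -0.132 to 0.0819. With 3 libraries per group these values cannot exclude a pairing by replicate number. With the replicate number as a block 3339 genes changed, 91.9% of the 3576 being among them. Of the 222 named genes none changed sign while past the threshold. A lower depth would raise the 0.332 to 0.406 CPM that 3 counts allow, and genes near it have the widest intervals.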
